A study of Homo sapiens with 12 samples.

Results

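The 10 genes HSPA5, HSP90B1, DNAJB9, DNAJC3, SDF2L1, HERPUD1, EDEM1, XBP1, ATF6 and ERN1 belong to the unfolded protein response of the endoplasmic reticulum (ER). They were taken by gene symbol from a table of 28035 genes, and all 10 were among the 15990 genes tested. RNA was measured by poly(A) RNA-seq in OVCAR-3, a human cell line from an ovarian adenocarcinoma, whose genotype is given as wild type. The 4 groups hold 3 libraries each, all from cells treated for 6 h. The Combination group received fusicoccin A (FC-A) and interferon alpha (IFNa) together, the IFNa group interferon alpha alone, the FC-A group fusicoccin A alone, and the DMSO group the solvent. Fusicoccin A is a fungal diterpene glycoside that stabilizes complexes of 14-3-3 proteins with their partners. The labels give no doses and do not say whether the IFNa group also received DMSO. Nothing in the labels says that the 3 libraries of a group came from separate cultures, so p-values measure the spread between these libraries, which may be technical.

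Unfolded proteins in the ER are sensed by 3 membrane proteins, IRE1 (encoded by ERN1), ATF6 and PERK (EIF2AK3). IRE1 splices XBP1 mRNA into the form that encodes an active transcription factor, ATF6 is cut in the Golgi to release another, and PERK slows translation and favours that of ATF4. XBP1 and ATF6 raise the genes of ER chaperones and of ER-associated degradation (ERAD), largely through short promoter elements that carry the core CCACG. Gene-level reads do not separate spliced from unspliced XBP1, nor cut from intact ATF6 protein, so the values below are mRNA levels of whole genes.

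The promoter stretches that hold these elements are shown because XBP1 and ATF6 are known to act on chaperone and ERAD genes through such sites. All 10 genes were found in RefSeq's promoter table (GRCh38.p14; 250 bases before to 50 after each start site), XBP1 with 2 start sites. Each stretch runs 5′ to 3′ on the strand of the gene and lies upstream of its start site. Capitals mark the ER stress response element ERSE (CCAAT, any 9 bases, CCACG) in the first 3 genes, ERSE-II (ATTGG, any 1 base, CCACG) in the next 2, and the bare CCACG core in the last, on either strand.
HSPA5, chr9:125241381-125241419, minus strand: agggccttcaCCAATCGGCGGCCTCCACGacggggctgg
HSP90B1, chr12:103930206-103930349, plus strand: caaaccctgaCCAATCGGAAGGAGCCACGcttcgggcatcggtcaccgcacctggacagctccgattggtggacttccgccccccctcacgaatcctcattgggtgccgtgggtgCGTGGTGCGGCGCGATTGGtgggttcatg
XBP1, chr22:28800593-28800631, minus strand: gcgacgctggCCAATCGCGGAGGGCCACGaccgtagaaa
HERPUD1, chr16:56932015-56932045, plus strand: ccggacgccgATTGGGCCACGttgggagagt
SDF2L1, chr22:21642104-21642134, plus strand: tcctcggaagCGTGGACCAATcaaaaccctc
DNAJB9, chr7:108569790-108569841, plus strand: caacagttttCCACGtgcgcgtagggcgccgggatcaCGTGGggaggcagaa

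The ERSE was found in 3 of the 10 members, HSPA5, HSP90B1 and XBP1, and in 27 of the 35116 promoters in the table (0.0769%). HSP90B1 held 2 copies, in opposite orientations. ERSE-II was found in HERPUD1 and SDF2L1, and in 0.0541% of all promoters. The core alone, which lies inside both elements, was found in 8 members and in 38.1% of all promoters, and is missing from the windows of ATF6 and ERN1. Another element, the UPRE (TGACGTGG), which overlaps the core on the other strand, was in 0.729% of promoters and in none of the 10 windows. The interferon-stimulated response element, searched as GAAA, any 2 bases and GAAA, was in 3.57% of promoters and in none of the 10 windows. Of the 10 interferon-induced genes used as a check of the treatment, 8 were in the promoter table and 7 of those held it. The ER elements were searched for because they are known in genes of this kind, so finding them here is no independent result. A match is a string of letters and not a shown binding site.

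**Figure D1:**
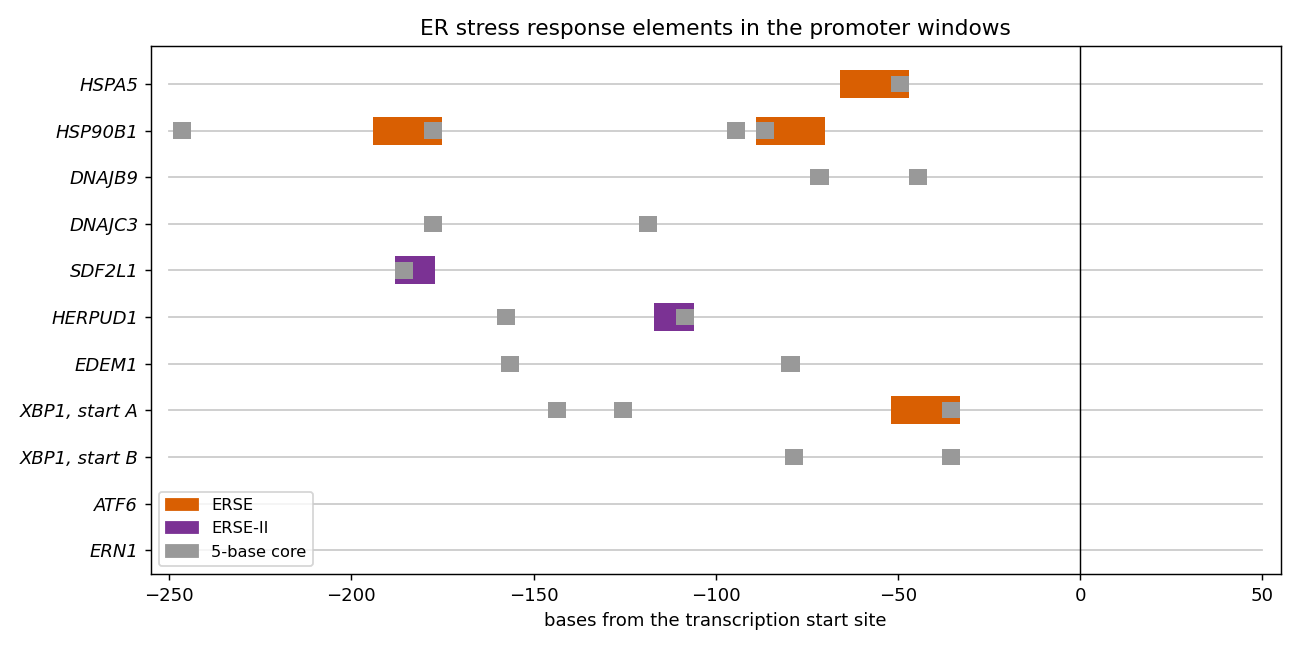
Position of the elements in the 300-base promoter windows of the 10 genes (XBP1 with its 2 start sites), in bases from the start site; orange marks the ERSE, purple ERSE-II and grey the 5-base core. Elements of HSPA5, HSP90B1, XBP1, HERPUD1 and SDF2L1 all lie upstream of the start, and ATF6 and ERN1 carry no match.

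Library depth was even, at 31181742 to 39529357 recovered reads. The deposited values are reads divided by 1 factor per library, called normalized reads below. Their sums were 36829589 to 37082535 in Combination and 36271212 to 37624779 in IFNa, against 31691975 to 32728638 in FC-A and 32232205 to 32576871 in DMSO. This gap lies between the groups with and without IFNa, and what follows from it for the scaling is given with the scaling results. All 10 interferon-induced genes of the check rose in both groups given IFNa (median log2 fold change 7.62 for Combination and 7.51 for IFNa, against DMSO), and none passed the test with FC-A. Epithelial marker genes were all detected, with sums of 466720.0 to 504087 normalized reads in Combination, 429454 to 480507 in IFNa, 412302 to 487923 in FC-A and 445505 to 460536 in DMSO. Fibroblast markers summed to 1807 to 2436 in Combination and 1630.1 to 2153 in IFNa, against 1234 to 1275 in FC-A and 1085 to 1140.1 in DMSO. COL1A1 made up most of it, averaging 1788 in Combination and 1676 in IFNa, against 951 in FC-A and 815 in DMSO, while DCN and LUM were at or near 0. COL1A2 fell, by 0.60 on the log2 scale in Combination and by 0.81 in IFNa against DMSO (limma adjusted p = 0.0243 and 0.00441). Immune markers summed to 194 to 317 normalized reads over the 12 libraries and endothelial markers to 575 to 746. The part of these markers in the results was not tested.

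Most of the 10 genes were higher in cells given IFNa, with or without FC-A, and the changes were below 2-fold. IFNa alone raised 6 of the 10 against DMSO, namely HERPUD1, HSPA5, DNAJB9, XBP1, EDEM1 and HSP90B1. None fell and 4 did not pass (limma, Benjamini-Hochberg adjusted p below 0.05 over 15990 genes). Of all genes tested, 46.9% were called in this comparison, 25.4% as higher, so a call by itself is common here. The median log2 fold change of the 10 was 0.28, against -0.0065 over all genes tested. The Combination raised the same 6 genes against DMSO and again against FC-A, with backgrounds of 48.3% and 48.9% called (26.1% and 26.6% as higher). The medians of the 10 were 0.32 and 0.28, against -0.01 over all genes in both comparisons. Against FC-A the Combination libraries had 1.55-fold the level of HERPUD1 (log2 0.64, limma adjusted p = 8.37e-07) and 1.43-fold that of HSPA5 (log2 0.51, limma adjusted p = 1.44e-05). Comparisons with DMSO share its libraries, so their calls are not independent of each other. Of the 10, 7 lay above DMSO without overlap in IFNa and in Combination, and 6 above FC-A in Combination, while ATF6 lay below DMSO in IFNa. Of the 15990 genes tested, 4853, 5015 and 4548 lay above without overlap in these comparisons. In either direction, 58.2%, 60.8% and 53.9% did not overlap. In bulk RNA a gain in the share of cells that express a gene and a gain in RNA per cell cannot be told apart.

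**Figure D2:**
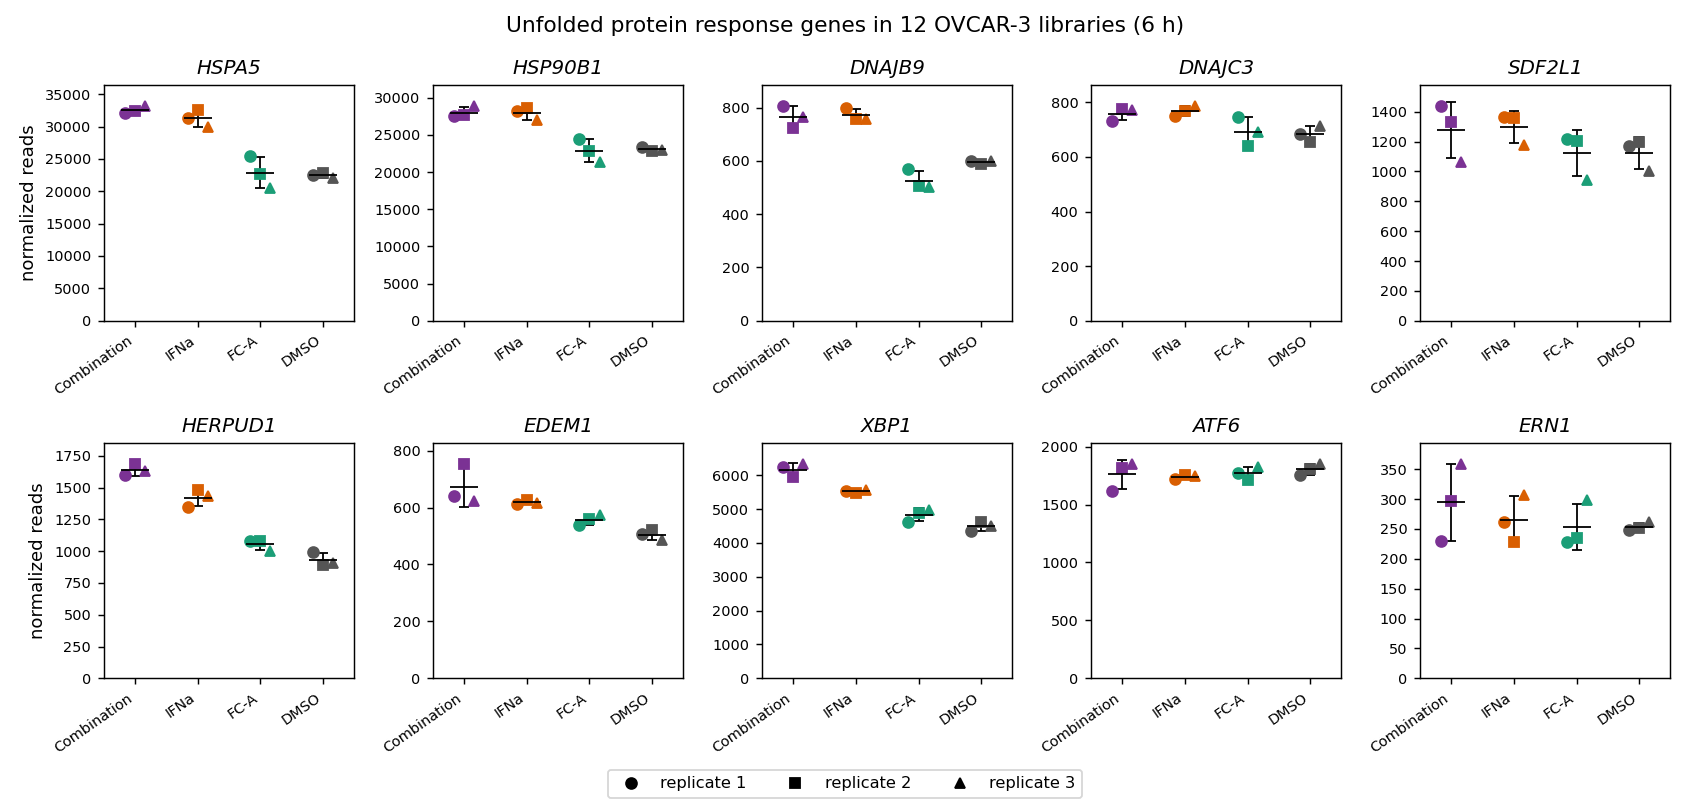
Normalized reads of the 10 genes in all 12 libraries, on axes that start at 0; points are libraries, the bar is the group mean and the whiskers ± 1 SD (n = 3). HERPUD1 steps down from Combination through IFNa and FC-A to DMSO with no overlap between groups, while ATF6 sits between 1620.1 and 1850.4 in every group.

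Chaperones. HSPA5 encodes BiP, the main Hsp70 chaperone of the ER lumen, which also holds the sensors inactive when it is not occupied by client proteins. It had 32081, 32483 and 33123 normalized reads in Combination, 31364, 32486 and 29921 in IFNa, 25389.5, 22709 and 20572 in FC-A, and 22539.6, 22842 and 22064 in DMSO. All 6 libraries with IFNa lay above all 6 without it, and the FC-A libraries spread around those of DMSO. The rise was 1.45-fold in Combination against DMSO (log2 0.53, SE 0.06, limma adjusted p = 9.84e-06) and 1.39-fold in IFNa against DMSO (log2 0.47, SE 0.06, limma adjusted p = 3.35e-05).

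HSP90B1 encodes GRP94, the Hsp90 chaperone of the ER. It had 27525, 27639 and 28848 normalized reads in Combination, 28271, 28616 and 26958 in IFNa, 24428, 22806 and 21406 in FC-A, and 23444, 22860.1 and 22979 in DMSO. The groups with and without IFNa did not overlap. It rose 1.21-fold in Combination and 1.21-fold in IFNa, each against DMSO (log2 0.28 and 0.27, SE 0.05, limma adjusted p = 5.32e-04 and 6.24e-04), but it lost both calls with quantile normalization (0.03 and -0.0080) and with scaling by total reads (0.09 and 0.08). In an annotation of another build (GENCODE 29), HSP90B1 overlaps C12orf73, which averaged 232 normalized reads, and a pseudogene copy, HSP90B2P, averaged 10.9.

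DNAJB9 (ERdj4) and DNAJC3 (p58IPK) encode J-domain co-chaperones of BiP. DNAJB9 had 805, 724 and 764 normalized reads in Combination, 799, 759 and 759 in IFNa, 569, 507 and 503 in FC-A, and 599, 587 and 599.7 in DMSO. It was high in every library with IFNa, and the 3 FC-A libraries lay below the 3 DMSO libraries. The rise was 1.28-fold in Combination and 1.30-fold in IFNa against DMSO (log2 0.36 and 0.37, SE 0.07, limma adjusted p = 4.66e-04 and 3.54e-04), and 1.45-fold in Combination against FC-A (log2 0.54, limma adjusted p = 1.19e-05). On the opposite strand DNAJB9 overlaps THAP5 and PNPLA8 in GENCODE 29. The labels do not say whether reads were counted by strand. THAP5 and PNPLA8 had log2 fold changes of -0.05 and 0.10 in IFNa against DMSO, neither past the limma threshold, and PNPLA8 rose in Combination against DMSO (0.24, limma adjusted p = 0.00726).

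DNAJC3 had 730.4, 777 and 771 normalized reads in Combination, 749.6, 769 and 786 in IFNa, 748, 641 and 691 in FC-A, and 684, 655 and 712 in DMSO. Both groups with IFNa lay above DMSO without overlap. IFNa also lay above FC-A, and Combination overlapped FC-A. Its log2 fold changes of 0.15 in Combination and 0.17 in IFNa (limma adjusted p = 0.0733 and 0.0501) did not pass. For IFNa it passed under 6 of 26 alternatives, namely a pseudocount of 0.5, a minimum mean of 50, the compared groups only, the replicate block, and FC-A replicate 1 or 2 left out (adjusted p from 0.0322 to 0.0498). For Combination it passed without FC-A replicate 1 (0.0495).

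SDF2L1 encodes a partner of the J-domain protein ERdj3 in the chaperone complex. It had 1436, 1331 and 1067 normalized reads in Combination, 1368, 1355 and 1176 in IFNa, 1217, 1205 and 945 in FC-A, and 1169, 1199.7 and 1005 in DMSO. The replicate 3 library was the lowest in each of the 4 groups, and the groups overlapped. Its log2 fold changes, 0.18 in Combination and 0.21 in IFNa against DMSO (SE 0.12, limma adjusted p = 0.235 and 0.164), did not pass. Without replicate 3 of all groups they were 0.22 and 0.20, with limma adjusted p = 0.00565 and 0.0110. That fit called 7678 and 7580 of all 15990 genes in Combination and IFNa against DMSO. Over the 4 groups, 22.3% of all genes tested differed between replicate 3 and the other libraries (limma), SDF2L1 and ERN1 among the members.

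Degradation. HERPUD1 encodes HERP, a membrane protein that organizes the ERAD ubiquitin ligase complex. It had 1597, 1686 and 1628 normalized reads in Combination, 1350.3, 1484 and 1433 in IFNa, 1081, 1081 and 999 in FC-A, and 992, 888 and 904 in DMSO. The order of the groups was Combination, IFNa, FC-A and DMSO, and no neighbours in it overlapped. It had the largest change of the 10, 1.77-fold in Combination (log2 0.82, SE 0.06, limma adjusted p = 5.35e-08) and 1.53-fold in IFNa (log2 0.62, SE 0.06, limma adjusted p = 1.27e-06), both against DMSO.

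EDEM1 encodes a lectin-like protein that directs misfolded glycoproteins to ERAD. It had 641, 753 and 621 normalized reads in Combination, 614, 625 and 615 in IFNa, 539, 559 and 573 in FC-A, and 507, 521 and 484 in DMSO. Combination and IFNa overlapped, and both lay above FC-A, which lay above DMSO. It rose 1.33-fold in Combination (log2 0.41, SE 0.07, limma adjusted p = 4.01e-04) and 1.23-fold in IFNa (log2 0.29, SE 0.07, limma adjusted p = 0.00487), both against DMSO. With total reads the IFNa change was 0.10 and not called (limma adjusted p = 0.252).

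Transcription factors and sensors. XBP1 had 6232, 5938 and 6334 normalized reads in Combination, 5538, 5469 and 5569 in IFNa, 4617, 4899 and 4975 in FC-A, and 4339, 4620.1 and 4502 in DMSO. Combination lay above IFNa and IFNa above FC-A, while FC-A and DMSO overlapped in 1 library each. It rose 1.37-fold in Combination (log2 0.46, SE 0.05, limma adjusted p = 1.29e-06) and 1.23-fold in IFNa (log2 0.30, SE 0.05, limma adjusted p = 8.80e-05), both against DMSO. The IFNa call was lost with total reads (0.11, limma adjusted p = 0.0686) and with quantile normalization (0.09, 0.174).

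ATF6 had 1620.1, 1819 and 1850.4 normalized reads in Combination, 1724, 1753 and 1750.2 in IFNa, 1771, 1711 and 1827 in FC-A, and 1755, 1810.1 and 1849.7 in DMSO. Its log2 fold changes were -0.04 in Combination and -0.05 in IFNa, both against DMSO (limma adjusted p = 0.617 and 0.478), with 95% intervals of -0.15 to 0.08 and -0.17 to 0.07. ERN1 had 230.1, 296 and 359 normalized reads in Combination, 262, 228 and 307 in IFNa, 229, 235 and 298 in FC-A, and 249, 252 and 261 in DMSO. Its replicate 3 library was the highest in each of the 4 groups. Its log2 fold change was 0.19 in Combination (95% interval -0.14 to 0.52) and 0.06 in IFNa (-0.27 to 0.38), neither past the limma threshold. Without replicate 3 of all groups, the 6 called genes were still called higher in IFNa and in Combination against DMSO. That fit called 7580 and 7678 of all 15990 genes in these comparisons, 55.5% and 54.6% of them higher.

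**Figure D3:**
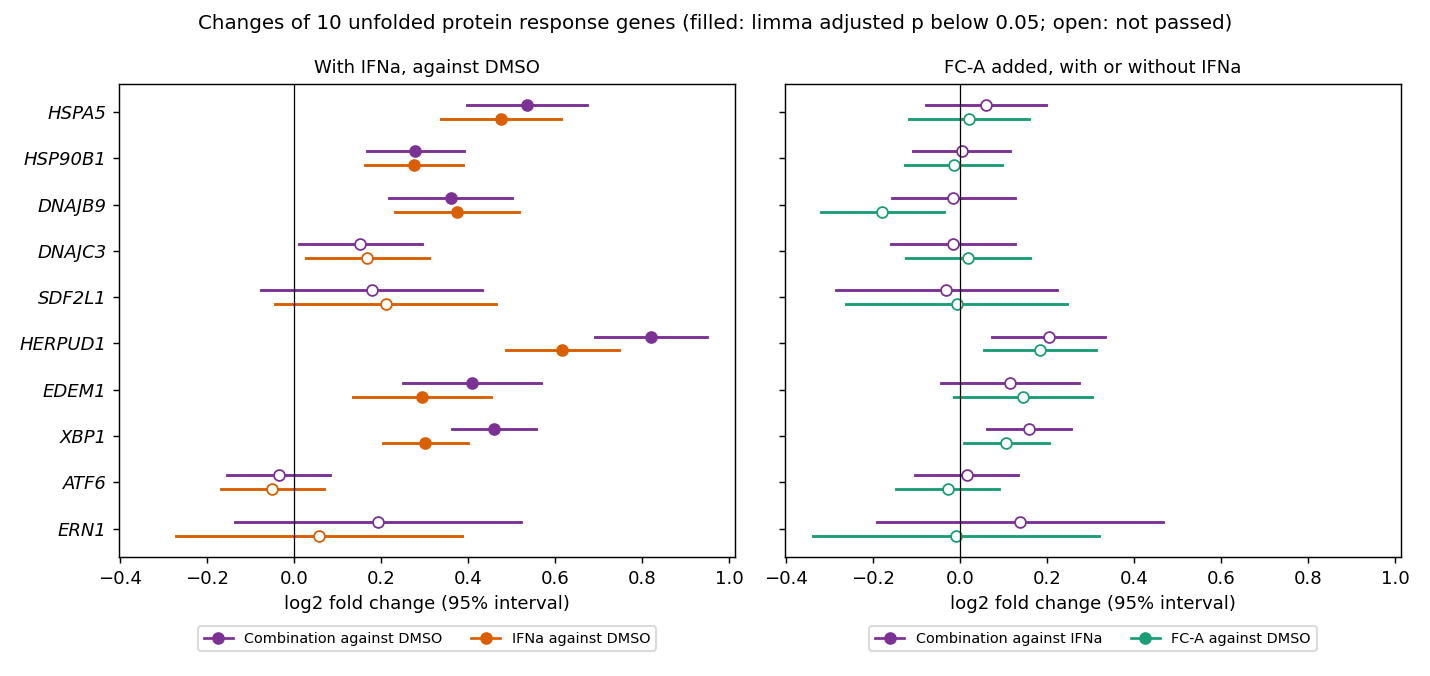
Log2 fold changes of the 10 genes with 95% intervals; left, Combination and IFNa against DMSO, and right, Combination against IFNa and FC-A against DMSO. Filled points passed the limma threshold: HERPUD1 reached 0.82 and 0.62 on the left, and every point on the right is open. Quantile normalization, not drawn here, put HSP90B1 in IFNa against DMSO at -0.0080.

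FC-A alone changed none of the 10 genes past the threshold. In this comparison 0.3% of all genes were called by limma, and edgeR and DESeq2 on the recovered reads also called 0 of the 10. At an unadjusted p below 0.05 there were 3 of 10 (HERPUD1, DNAJB9 and XBP1), against 8.61% of all genes. HERPUD1 was 1.14-fold of DMSO (log2 0.18, 95% interval 0.05 to 0.31, limma adjusted p = 0.351), DNAJB9 was 0.883-fold (log2 -0.18, -0.32 to -0.04, limma adjusted p = 0.431) and XBP1 1.08-fold (log2 0.11, 0.01 to 0.20, limma adjusted p = 0.535). The intervals are not adjusted for the number of genes. HERPUD1 and EDEM1 lay above DMSO and DNAJB9 below it without overlap, as 15.2% of all genes did in either direction. For HSPA5 the interval of -0.12 to 0.16 has an upper bound below the rise measured with IFNa (0.47).

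FC-A on top of IFNa also changed none of the 10 past the threshold, with 0.331% of all genes called. By edgeR and DESeq2 the count was 0 as well, and at an unadjusted p below 0.05 it was 2 of 10 (HERPUD1 and XBP1), against 13.2% of all genes. With the replicate number added to the fit as a block, both passed (limma adjusted p = 0.0462 and 0.0340), with 1009 of all genes called. HERPUD1 was 1.15-fold of IFNa in Combination (log2 0.20, 95% interval 0.07 to 0.33, limma adjusted p = 0.195), and XBP1 1.12-fold (log2 0.16, 0.06 to 0.26, limma adjusted p = 0.181). Those were the 2 members whose Combination libraries all lay above the IFNa libraries. Of the 15990 genes tested 1541 did so, and 16.4% did not overlap in either direction. The other 8 had log2 fold changes from -0.03 to 0.14. In the authors' deposited table, which divides IFNa by Combination, XBP1 had a log2 fold change of -0.16 with an adjusted p of 0.0606.

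Whether FC-A acted differently in the presence of IFNa was tested as an interaction, the log2 change of Combination against IFNa minus that of FC-A against DMSO. None of the 10 passed at an adjusted or an unadjusted p of 0.05, by limma, and edgeR and DESeq2 also called 0. Over all genes limma called 0, and 3.92% had an unadjusted p below 0.05. For HERPUD1 the difference was 0.02 on the log2 scale (95% interval -0.16 to 0.20) and for XBP1 it was 0.05 (-0.09 to 0.19). DNAJB9 had the largest, 0.16 (-0.04 to 0.36), from -0.18 with FC-A against DMSO and -0.02 with Combination against IFNa.

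Other genes of the response were taken as 6 lists of 73 genes in all, 71 of them tested, and they were uneven with IFNa. Against DMSO 30 rose and 4 fell in IFNa (median 0.13), and 29 rose and 4 fell in Combination (median 0.11). Of all genes tested, 46.9% and 48.3% were called in these comparisons, so the counts of calls summed over both directions are near the background. By direction, 30 and 29 of the 71 list genes rose, where 25.4% and 26.1% of all genes were called higher. The 4 that fell in each comparison stand against 3440 and 3557 of 15990 genes called lower. Whether these shares differ was not tested. Of 16 ER chaperones and folding enzymes, 10 rose and none fell in IFNa, with a median log2 fold change of 0.26, and 8 rose in Combination. MANF, a secreted BiP-binding protein, led with 0.40 in IFNa, followed by the disulfide oxidase ERO1L (0.38) and the lectin chaperone CALR (0.33). RefSeq promoters were found for 13 of the 16, and CALR, CANX, CRELD2 and PDIA6 held the ERSE there, while HYOU1 held ERSE-II.

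Of 15 ERAD genes 5 rose, 1 fell and 9 did not pass in IFNa against DMSO (median 0.07). Of all genes tested, 46.9% were called in this comparison, 25.4% as higher, so a call by itself is common here too. VIMP, the selenoprotein that recruits p97 to the ER, had 1451, 1481 and 1498 normalized reads in Combination, 1499.2, 1569.6 and 1465 in IFNa, 1001, 1028 and 927 in FC-A, and 1054, 1007 and 1035 in DMSO. It rose by 0.55 in IFNa, and the channel components DERL1 and DERL2 by 0.37 and 0.24. Of 15 genes of translocation and ER traffic, SEC24D of the COPII coat rose (0.58) and the retrieval receptor KDELR3 fell by 0.31, while 13 did not pass.

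Among 10 tested sensors, proteases and partners 3 rose and 2 fell in IFNa against DMSO, where 46.9% of all genes were called (25.4% as higher). CREB3L2, a membrane-bound transcription factor cut like ATF6, had 869.7, 946 and 771 normalized reads in Combination, 934, 975 and 697 in IFNa, 1749, 2086 and 2209 in FC-A, and 1699.7, 1754 and 1789 in DMSO. It was lower in every library with IFNa, at 0.492-fold of DMSO in both groups (log2 -1.02 each, SE 0.12, limma adjusted p = 5.88e-06 in Combination and 6.63e-06 in IFNa). WFS1, an ER membrane protein that restrains ATF6, fell by 0.59 in IFNa. TRAF2, which links IRE1 to JNK, rose by 0.63. EIF2AK3, which encodes PERK, had a log2 fold change of 0.07 and did not pass (limma adjusted p = 0.472). Of 5 tested transcripts that IRE1 is known to cut, PMP22 and SCARA3 rose in IFNa (0.94 and 0.75) and 3 did not pass.

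The PERK and ATF4 arm had the largest median of the lists in IFNa and in Combination against DMSO. Of its 10 genes 9 rose in IFNa (median 0.64) and 9 in Combination (median 0.83), ASNS being the 1 that did not pass. Of all genes tested, 25.4% and 26.1% were called higher in these comparisons. NUPR1, a stress-induced chromatin protein, had 2325, 2333 and 3187 normalized reads in Combination, 1090.3, 1020.4 and 1897 in IFNa, 212, 279 and 289.7 in FC-A, and 194, 218 and 229 in DMSO. CHAC1, which breaks down glutathione, had 650.1, 745 and 712 in Combination, 404, 467 and 511 in IFNa, 253, 235 and 197 in FC-A, and 156, 166 and 161 in DMSO. The 4 groups did not overlap for CHAC1, in the order Combination, IFNa, FC-A and DMSO.

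With FC-A alone no gene of the 6 lists passed by limma (9 at an unadjusted p below 0.05, 0 by edgeR). Of all genes tested, limma called 0.3%, and 8.61% had an unadjusted p below 0.05. DESeq2 called 4, and the authors' deposited table also gives 4, which there are ATF3, CHAC1, DDIT3 and SESN2. Each of these 2 called 155 of all genes. The PERK and ATF4 arm had a median of 0.21 with 9 of 10 positive, against -0.01 for chaperones, -0.03 for ERAD and -0.09 for translocation, where none of 15 was positive. Of all genes tested, 7734 of 15990 were positive, with a median of -0.0046. The median SE was 0.08 in the PERK and ATF4 arm and 0.06 in translocation. Whether the lists differ was not tested. ATF3, a transcription factor induced by ATF4, had 667, 549 and 523 normalized reads in FC-A and 375, 394 and 345 in DMSO (log2 0.64, limma adjusted p = 0.0565). With FC-A on top of IFNa, where 0.331% of all genes were called, CHAC1 was the 1 gene of the lists past the limma threshold (log2 0.61, SE 0.11, adjusted p = 0.0310). That count ran from 0 to 5 when single libraries were left out, with 5 without IFNa replicate 3, 3 without FC-A replicate 1 or 3, and 0 in each of the other 9. Over all genes, 510 were called without IFNa replicate 3, 92 and 89 without FC-A replicate 1 or 3, and 4 to 27 in the other fits. No list gene passed the interaction test, and edgeR and DESeq2 also called 0. By limma 4 list genes had an unadjusted p below 0.05, against 3.92% of all genes.

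**Figure D4:**
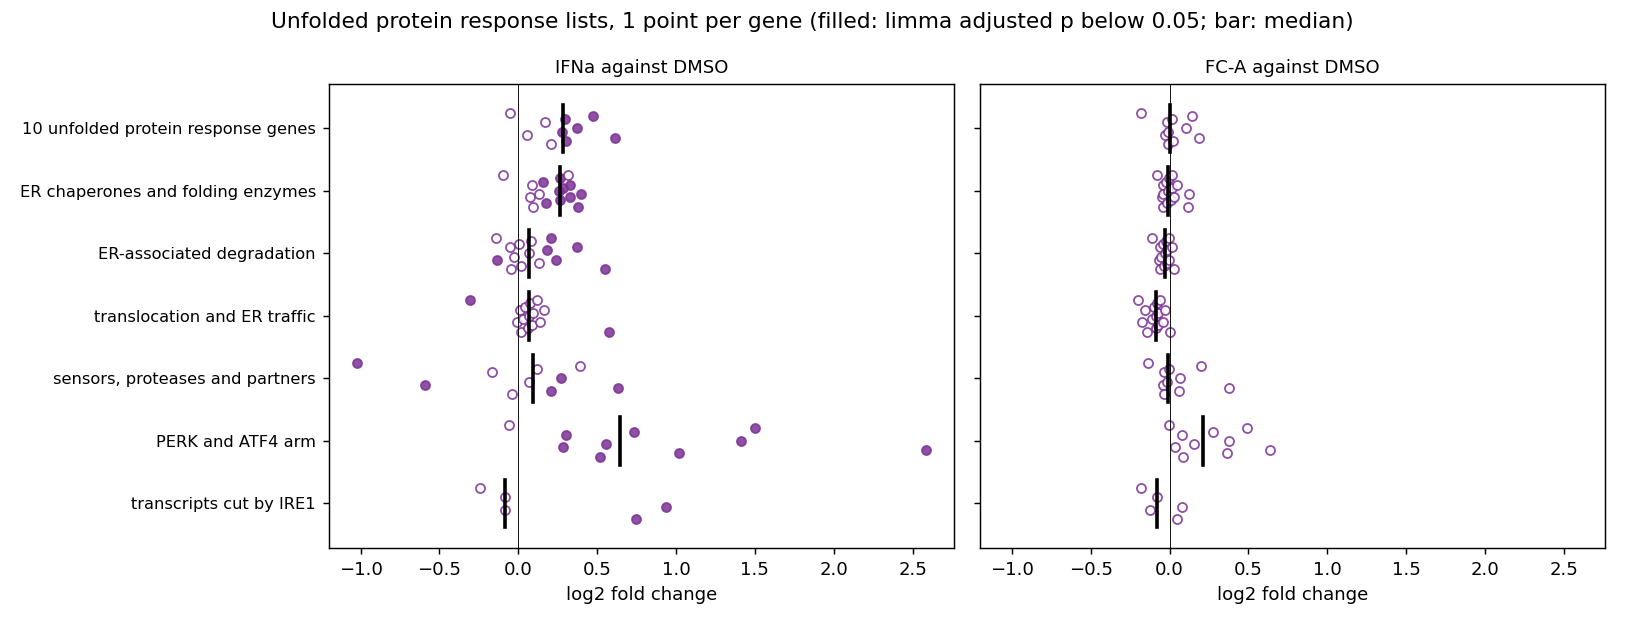
Log2 fold changes of the 10 genes and of 6 lists of other response genes, 1 point per gene, in IFNa against DMSO (left) and FC-A against DMSO (right), on the same axis; filled points passed the limma threshold and black bars are medians. On the left the PERK and ATF4 arm has a median of 0.64 and CREB3L2 lies at -1.02. On the right all points are open, with medians between -0.09 and 0.21. Quantile normalization, not drawn here, put HSP90B1 in IFNa against DMSO at -0.0080.

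The size of the IFNa effect on these genes depended on how libraries were scaled. Scaling by total reads, an alternative chosen after seeing the data, put the all-gene median of IFNa against DMSO at -0.20 on the log2 scale, and quantile normalization at -0.10, against -0.01 as deposited. The share of higher genes among all called was 54.2% as deposited, 36.6% with quantile normalization and 25.5% with total reads. With total reads HERPUD1 (0.43, limma adjusted p = 3.29e-05), HSPA5 (0.28, 6.46e-04) and DNAJB9 (0.18, 0.0229) were still called higher. XBP1 (0.11, 0.0686), HSP90B1 (0.08, 0.116) and EDEM1 (0.10, 0.252) were not, and ATF6 was called lower (-0.24, 0.00292). Relative to the median of all genes, HSPA5 stood 0.48 above it and HERPUD1 0.62 both as deposited and with total reads. With quantile normalization they stood 0.31 and 0.60 above it, XBP1 and HSP90B1 lost their calls and ATF6 was called lower (-0.18, 0.0157). Relative to the same median, ATF6 stood at -0.04 as deposited, -0.05 with total reads and -0.08 with quantile normalization. For Combination against DMSO, HSP90B1 lost its call under both scalings and ATF6 was called lower (-0.22 with total reads, -0.16 with quantile normalization). Against FC-A, HSP90B1 lost its call under both (0.10 and 0.03), EDEM1 with total reads (0.07, limma adjusted p = 0.454) and XBP1 with quantile normalization (0.12, 0.0517), and ATF6 was called lower (-0.20 and -0.14).

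**Figure D5:**
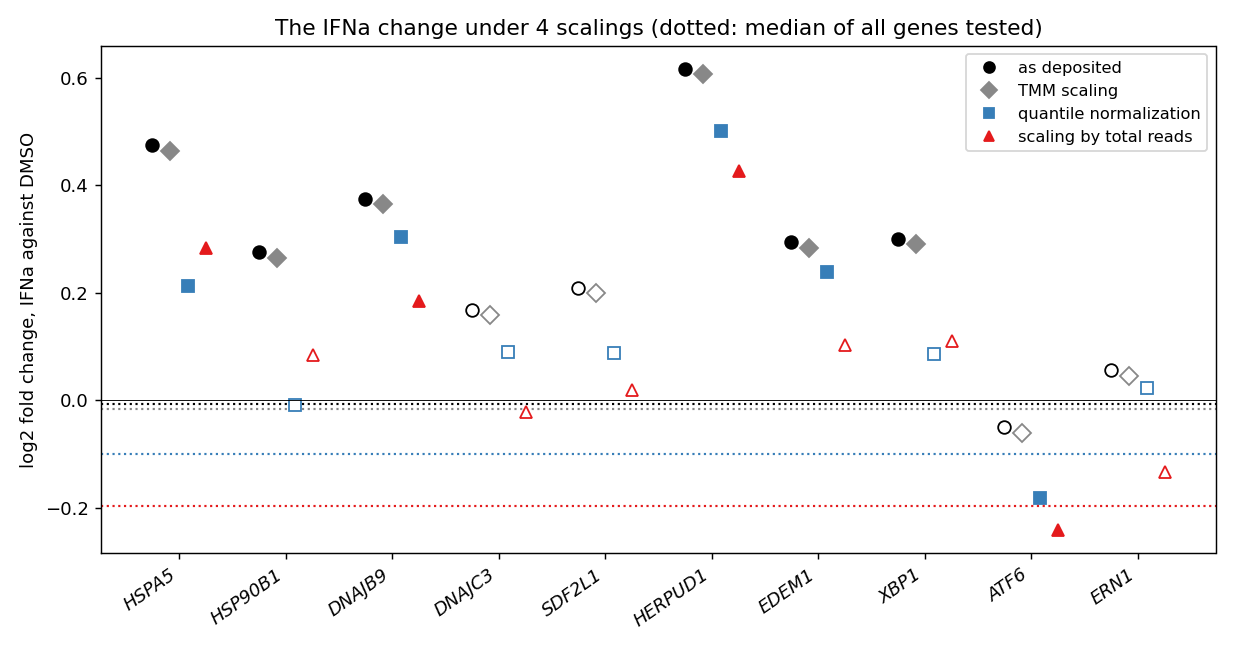
Log2 fold change in IFNa against DMSO for each of the 10 genes under 4 scalings; filled points passed the limma threshold and dotted lines are the medians of all genes tested under each scaling. HERPUD1, HSPA5 and DNAJB9 are filled under all 4, and HSP90B1 turns to -0.0080 under quantile normalization.

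The genes whose pattern over the 12 libraries was most like that of HSPA5 were DDX52, CTSB, AKIRIN1, TIMP2 and ECHS1, with root mean square differences of 0.03 to 0.05 in centred log2 values. For HERPUD1 they were RALB, SHC1, UBAP1, BTN2A1 and CSRNP1, at 0.07 to 0.08. None of these 10 is a gene of the lists or one of the members. The lists and the members hold only 71 and 10 of the 15990 genes tested. In IFNa against DMSO the genes near HSPA5 had log2 fold changes of 0.47 to 0.49. Those near HERPUD1 had 0.54 to 0.64.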

How the data were processed

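RNA was extracted with a column kit and made into stranded poly(A) libraries from 100 ng of total RNA, per the labels. The signal values are the authors' deposited normalized counts, 1 per gene and library. Each library's values became whole numbers when multiplied by 1 factor (100% within 0.01), and depth is the sum of those recovered reads. The deposited log2 fold changes, p-values and adjusted p-values of the authors' tables are as given per the file headers. Tools in the submitters' processing notes are STAR 2.7.3, bcl2fastq 2.20, DESeq2 1.24.0 and FastQC, and the build is hg19. The counting program, annotation and strand setting were not given in the sources used here.

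The test took genes averaging 10 or more normalized reads (15990 of 28035; 12045 not tested). limma 3.58.1 in R 4.3.3 fitted log2(normalized reads + 1) with 4 group means over all 12 libraries and a variance trend, which understates the change of low genes. Tests were two-sided, with Benjamini-Hochberg adjustment over all genes tested within each of 6 comparisons and a threshold of 0.05. Fold is 2 to the power of the log2 value, and SE is limma's moderated standard error. edgeR 4.0.16 (quasi-likelihood) and DESeq2 1.42.0 were run on the recovered reads as alternatives, all of whose values were whole. The analysis was tested on simulated data first.

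The members and gene lists were chosen with earlier results of these data known. All 10 members are named, with up to 3 list genes of largest change past the threshold per list and comparison, or the 1 of smallest p where none passed, and the 5 genes closest to HSPA5 and to HERPUD1. The text gives a part of these, and adds EIF2AK3, ASNS, DDIT3, SESN2 and, for their promoters, CANX, CRELD2, PDIA6 and HYOU1, chosen after their values were seen. The result of 1 list gene is not reported here. Promoters come from RefSeq (GRCh38.p14), another build than that of the reads, so no position was matched to reads.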

Additional observations from a re-analysis of the deposited data

How the results depend on the processing

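Over 26 alternatives (other pseudocounts and filters, TMM, quantile and total-read scaling, no variance trend, compared groups only, the replicate block, replicate 3 of all groups left out, each of 12 libraries left out, edgeR, DESeq2 and the authors' deposited tables), the number of the 10 genes called was 4 to 8 in IFNa against DMSO, 6 to 7 in Combination against DMSO and 5 to 7 in Combination against FC-A. The same alternatives called 6183 to 9347, 6584 to 9523 and 6664 to 9629 of all genes, the most with total reads each time. With total reads or quantile normalization, each count of the 10 genes includes ATF6, called lower. All other calls among the 10 were higher. Under both scalings, 25.5% to 36.6% of all called genes were higher in these comparisons. ATF6 lay at -0.08 to 0.0008 relative to the all-gene median there. The count of the 10 genes was 0 in FC-A against DMSO, and 0 in the interaction over its 24 alternatives (all but compared groups only and the authors' tables). In Combination against IFNa it was 0 except for 2 with the replicate block (HERPUD1 and XBP1, limma adjusted p = 0.0462 and 0.0340). The block called 1009 of all genes there, against 53 in the main fit. Among the called genes 1 direction turned: HSP90B1 in IFNa against DMSO was -0.0080 with quantile normalization. In Combination against DMSO, HSP90B1 lost its call with quantile normalization (0.03) and total reads (0.09), and the cause was not tested. Genes that did not pass, such as DNAJC3 and SDF2L1 with total reads, also changed sign. For the list genes in FC-A against DMSO, with 0 called, the count was 1 with total reads or quantile normalization. It was 2 without replicate 3 of all groups, and 4 with the replicate block, DESeq2 or the authors' table. Single libraries left out gave 0 to 2. In the order named, these settings called 53, 60, 134, 289, 155 and 155 of all genes, against 48 in the main fit. For the list genes in Combination against IFNa, with 1 called, the count was 0 with quantile normalization, no variance trend or compared groups only. It was 2 with a pseudocount of 8 or no filter. It was 4 with DESeq2 or the authors' table, 5 with the replicate block and 8 without replicate 3 of all groups. Single libraries left out gave 0 to 5, and the cause was not tested. The settings with 0 called 43, 11 and 10 of all genes. DESeq2, the block and the fit without replicate 3 called 231, 1009 and 1187, against 53 in the main fit. Samples with the same replicate number had deviations with correlations of 0.0176 to 0.395 over all pairs of groups, those of replicate 3 at 0.188 to 0.395. Within each comparison at least 1 pair was not above 0.1, so the main fit did not take the numbers as pairs. Spread shared by libraries of the same number therefore stayed in its error. With the replicate block, 289 of all genes were called in FC-A against DMSO and 1009 in Combination against IFNa. In the main fit these counts were 48 and 53. The block also brought SDF2L1 past the threshold in IFNa against DMSO (adjusted p = 0.00357). The median SE of a log2 fold change over all genes was 0.09, which limits what 3 libraries a group can show.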
